A study of Rattus norvegicus with 36 samples.

Results

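Ngfr, Bdnf, Nefm, Nefl and Gap43 are genes of neurotrophin signalling and of the growing and mature axon. Probe sets were taken where the platform annotation gave exactly 1 of these 5 symbols, which found 13 of the 8740 probe sets that are not controls: 7 for Bdnf, 2 for Ngfr, 2 for Nefl, and 1 each for Nefm and Gap43. They stand for 5 of the 4736 genes with a symbol on the array. The samples are total RNA of rat extraocular muscle (EOM), the muscles that move the eye, and of leg muscle, gastrocnemius with soleus, read on Affymetrix RG-U34A arrays at postnatal days 0, 7, 14, 21, 28 and 45. Each muscle at each age is a group of 3 arrays, which makes 12 groups and 36 arrays. The labels give no strain, sex, treatment or genotype, and they leave unsaid whether the 3 replicates of a group are 3 animals. The p-values therefore speak only of the spread among these samples, which may be technical.

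Neurotrophins are secreted proteins that keep neurons alive and guide the growth of their axons. Bdnf, brain-derived neurotrophic factor, is 1 of them; it signals through the receptor kinase encoded by Ntrk2 and also binds the p75 receptor encoded by Ngfr, which binds every neurotrophin and is made in neurons, in Schwann cells and, in muscle, in immature myogenic cells. Nefl and Nefm encode the light and medium neurofilament subunits, the intermediate filaments that set the calibre of axons, and Gap43 encodes a membrane protein of growth cones that is also made by immature Schwann cells. Most neurofilament RNA of a motor axon lies in the cell body, outside the muscle. The genome assembly GRCr8 places Nefl at chr15:46477330-46481203 and Nefm at chr15:46535857-46541161. Ngfr lies at chr10:81012077-81030305, Bdnf at chr3:116619633-116670212 and Gap43 at chr11:71882131-71975799.

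Values are the deposited intensities, linear and in arbitrary units; each probe set has its own response, so no probe set was ranked against another. For tests, intensities were floored at 100.9 (log2 6.66) and put on the log2 scale, and tests covered probe sets above 320.4 on at least 3 of the 36 arrays. Of the 13 member probe sets 10 were tested. The other 3, Bdnf rc_AI030286_s_at and X67108_at and Nefl M25638_s_at, lay at the floor on 30, 30 and 33 of 36 arrays. Array medians ran from 419.4 to 657.8, and arrays of a group correlated at 0.877 to 0.953 across probe sets. Myh13, the extraocular myosin, checked the muscle labels: it was not different between the muscles at day 0 (-0.30 on the log2 scale) and was higher in EOM by 2.40 at day 7 and 5.89 at day 45. Differences below are log2 values with the standard error of the limma fit, and adjusted p-values are limma's after Benjamini-Hochberg adjustment over all 6672 tested probe sets, with a threshold of 0.05.

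EOM carried more Nefm RNA than leg at days 0, 7, 14 and 45, by 1.45 to 1.88 on the log2 scale. The mean of every EOM group lay above the mean of every leg group, and at each age the EOM mean was the higher one, as for 14.5% of all tested probe sets. In leg, Nefm was at the floor on 13 of 18 arrays, and the differences and folds are those of floored values. It could enter the tests only through its EOM arrays, which in part builds in a difference in this direction. With bulk RNA, fewer cells of a type and less RNA per cell cannot be told apart, for this gene and those that follow.

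The Nefm probe set, Z12152_at, read 363.7, 384.1 and 492.6 in EOM at day 0, against 49.4, 60.7 and 249.4 in leg. At day 7 the EOM arrays read 325.3, 337.9 and 444.4 and the leg arrays 40, 43.9 and 158.9. At day 14 the values were 292.5, 400.3 and 436.1 in EOM and 32.5, 51.9 and 53.6 in leg. Up to this age every EOM array lay above every leg array. At day 21 one EOM array, replicate 1, read 62.2 while the others read 418.7 and 421.4, and leg read 58.4, 74.1 and 82.3. At day 28 EOM read 269.5, 276.0 and 459.6 and leg 58.4, 62.1 and 248.7, and at day 45 EOM read 404.0, 448.8 and 498.3 and leg 72.2, 158.6 and 278.6. The groups were thus apart at 5 of 6 ages, a pattern that 2.68% of all tested probe sets showed, and overlapped at day 21 through that single low array. Since Nefm could enter the tests only through EOM, this share does not show that its separation is rare.

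The EOM minus leg difference of Nefm was 1.59 ± 0.45 at day 0 (adjusted p = 0.0289), 3.00-fold. It was 1.64 ± 0.45 at day 7 (adjusted p = 0.0283), 1.88 ± 0.45 at day 14 (adjusted p = 0.0104), and 1.45 ± 0.45 at day 45 (adjusted p = 0.0362). In folds these 3 ages gave 3.11, 3.68 and 2.73. At days 0, 7, 14 and 45, 2, 2, 3 and 1 of the 3 leg arrays lay at the floor, and no EOM array did. These folds and that of day 0 are therefore lower bounds. At day 21 the difference was 1.37 (adjusted p = 0.0845) and at day 28 it was 1.25 (adjusted p = 0.0713), and neither passed. Without EOM day 21 replicate 1 the day 21 difference was 2.06 (adjusted p = 0.00499), and without leg day 28 replicate 1 the day 28 difference was 1.69 (adjusted p = 0.0238). Each was the only 1 of 17 alternative fits at its age that passed. Nefm passed the intensity filter on 14 of 18 EOM arrays and 0 of 18 leg arrays, so it could enter the tests only through EOM, and a difference in this direction is in part built into the filter. Its p-values at single ages therefore cannot be read as support for the difference.

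These calls lie close to the threshold. The day 0 call was lost without leg day 0 replicate 1 (1.37, adjusted p = 0.166) or 3 (1.37, adjusted p = 0.136) and without EOM day 0 replicate 1 (1.63, adjusted p = 0.0714) or 2 (1.45, adjusted p = 0.129). The day 7 call was lost without leg day 7 replicate 1 (1.53, adjusted p = 0.121) or 3 (1.53, adjusted p = 0.104), and without EOM day 7 replicate 1 (1.70, adjusted p = 0.0742), 2 (1.72, adjusted p = 0.0679) or 3 (1.50, adjusted p = 0.105). The day 14 call was lost without EOM day 14 replicate 2 (1.76, adjusted p = 0.0534). The day 45 call was lost without leg day 45 replicate 1 (1.42, adjusted p = 0.0954) or 3 (1.09, adjusted p = 0.169), and without EOM day 45 replicate 1 (1.37, adjusted p = 0.104), 2 (1.52, adjusted p = 0.0679) or 3 (1.45, adjusted p = 0.0669). Processing mattered too. The day 0 call was lost with arrays scaled to the same median (adjusted p = 0.0716), quantile normalized (0.0731) or with only the compared arrays fitted (0.0963). Quantile normalization also lost the day 7 call (0.0599). The day 45 call was lost with a floor at the 10th percentile (0.121), log2 of the value plus 100 (0.0629), same-median scaling (0.0511) or only the compared arrays (0.164). In each of these fits the difference stayed above 1 on the log2 scale.

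Over the ages Nefm had no detectable course. In EOM its group means lay between 8.03 and 8.81 on the log2 scale and in leg between 6.66 and 7.36, and the moderated F test over the 6 ages gave an adjusted p of 0.727 in EOM and 0.681 in leg. Neighbours in the order of the 6 EOM means were closer than the SDs of the groups, which ran from 0.15 at day 45 to 1.19 at day 21. From day 0 to day 45 Nefm differed by 0.13 ± 0.45 in EOM, with a 95% interval of -0.79 to 1.06. The change of EOM minus the change of leg was -0.14, with an interval of -1.45 to 1.17, which leaves room for a difference in either direction.

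**Figure D1:**
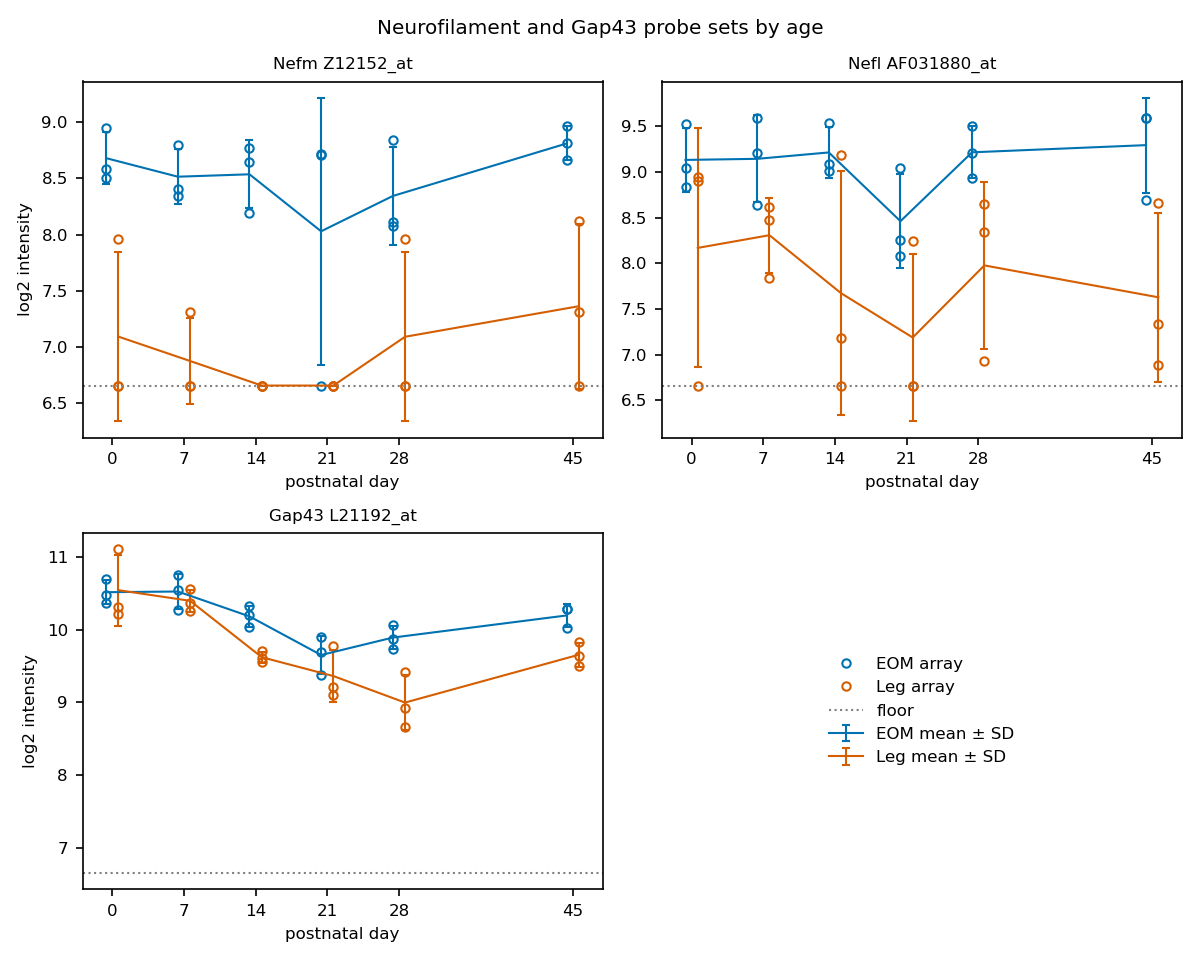
Log2 intensity of the Nefm, Nefl and Gap43 probe sets by postnatal day, with 1 circle for each array, EOM in blue and leg in orange, lines through group means with SD bars (3 arrays), and the floor dotted. Nefm in leg sits on or near the floor, Nefl is higher in EOM on average at each age, and Gap43 descends from birth in leg to its lowest mean at day 28.

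Nefl, the light subunit, was on the same side of the comparison as Nefm but more variable, and it passed at no single age. Its tested probe set, AF031880_at, read 457.6, 526.7 and 735.4 in EOM at day 0 and 76.6, 480.3 and 492.6 in leg. At day 7 EOM read 399.1, 590.1 and 771.5 and leg 229.4, 354.7 and 391.7. At day 14 EOM read 517.1, 546.5 and 743.7 and leg 83.4, 144.8 and 581.7. One leg array at day 14, replicate 2, thus reached the EOM range while the other 2 were far below it. At day 21 EOM read 271.2, 306.4 and 528.0 and leg 76.3, 92.5 and 304.2. By day 28 EOM read 489.1, 592.2 and 727.7 and leg 122.3, 326.1 and 401.7. At day 45 EOM read 414.6, 773.1 and 774.7 and leg 118.1, 161.8 and 405.3. The groups did not overlap at days 7, 28 and 45, where 12.5%, 15.9% and 11.2% of all tested probe sets had EOM arrays wholly above leg arrays.

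The EOM minus leg difference of Nefl was 0.84 ± 0.60 at day 7, its lowest, and 1.67 ± 0.60 at day 45, its highest, where the adjusted p was 0.0729. It passed at day 14 without leg day 14 replicate 2 (2.30, adjusted p = 0.0309) and at day 45 without leg day 45 replicate 1 (2.18, adjusted p = 0.0348). Of 17 alternative fits at each of these ages, 1 passed at day 14 and 2 at day 45, and the adjusted p reached 0.450 and 0.236. Neither muscle showed a course over the ages (adjusted p of the F test 0.832 in EOM and 0.572 in leg), and the lowest mean of both muscles was that of day 21, 8.46 ± 0.51 in EOM and 7.19 ± 0.92 in leg (SD, n = 3). The 12 group means of Nefl and Nefm correlated at 0.918, a description over groups that share their arrays. The second Nefl probe set, M25638_s_at, had its highest reading, 191.9, in EOM at day 0 and gives no level for either muscle.

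Gap43 fell between day 0 and day 45 in leg, and at day 28 it was higher in EOM than in leg. Its probe set, L21192_at, was above the filter on all 36 arrays. At day 0 EOM read 1326.1, 1427.5 and 1660.2 and leg 1187.7, 1269.8 and 2207.1, and at day 7 EOM read 1236.1, 1500.8 and 1727.9 and leg 1230.2, 1325.5 and 1506.5. In the first week the muscles overlapped. At day 14 EOM read 1046.8, 1173.7 and 1281.6 and leg 752.5, 779.3 and 835.7, and at day 21 EOM read 662.8, 826.7 and 951.8 and leg 548.2, 595.3 and 875.6. At day 28 EOM read 856.2, 939.2 and 1067.7 and leg 404.9, 483.8 and 683.4, and at day 45 EOM read 1036.8, 1247.6 and 1250.2 and leg 725.5, 797.9 and 909.2. All EOM arrays lay above all leg arrays at days 14, 28 and 45, which held for 12.3%, 15.9% and 11.2% of tested probe sets.

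The difference in Gap43 passed at day 28, at 0.89 ± 0.23 (adjusted p = 0.00866), 1.86-fold. At days 0 and 7 it was -0.03 ± 0.23 and 0.13 ± 0.23, and at days 14 and 45 it was 0.56 (adjusted p = 0.180) and 0.54 (adjusted p = 0.142). The day 28 call was lost without leg day 28 replicate 3 (0.73, adjusted p = 0.0684) and without EOM day 28 replicate 2 (0.81, adjusted p = 0.0514). Fitting only the compared arrays lost it too (adjusted p = 0.121). Between day 0 and day 45 Gap43 fell by 0.89 ± 0.23 in leg (adjusted p = 0.00305), 1.85-fold, and differed by -0.32 ± 0.23 in EOM (adjusted p = 0.315). The fall in leg was 0.61 (log2 change -0.61, adjusted p = 0.0552) without leg day 0 replicate 2, the array that read 2207.1. With only the compared arrays fitted, its adjusted p was 0.0503. The difference between these 2 changes was 0.57, with a 95% interval of -0.09 to 1.23 (adjusted p = 0.465), so a difference in course between the muscles was not shown.

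Over all 6 ages Gap43 varied in leg (F test, adjusted p = 8.11e-06) and in EOM (adjusted p = 0.0147). The call in EOM was lost without EOM day 21 replicate 1 (adjusted p = 0.0649) and when arrays were scaled to the same median (adjusted p = 0.185) or quantile normalized (adjusted p = 0.0989). In order of group means, the 4 groups of the first week came first, from 10.54 to 10.40, closer together than the SD of leg at day 0 (0.49). The leg group of day 28 came last, at 9.00 ± 0.38 (SD, n = 3). The largest single step in leg was from day 7 to day 14, -0.78 ± 0.23, with an adjusted p of 0.0509, and it did not pass. It passed in 5 of 16 alternative fits. The adjusted p ran from 0.0345, with the replicate number as a block over all arrays, to 0.182.

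The 2 Ngfr probe sets gave opposite courses and are described apart. U25650_f_at rose between birth and day 45 in EOM and was lower in EOM than in leg at day 0. X05137_at fell in both muscles. Their 12 group means correlated at -0.75, and neither can be chosen over the other from these data. In Affymetrix names the suffix f marks probes that match a family of similar sequences, while X05137_at carries the plain suffix.

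On U25650_f_at, EOM read 613.3, 1595.6 and 2629.9 at day 0 and leg 2837.3, 3046.4 and 4588.4. At day 7 EOM read 1955.8, 1987.1 and 2066.3 and leg 3029.6, 3212.6 and 3272.8. At day 14 EOM read 2475.1, 2620.7 and 2815.9 and leg 3200.3, 3855.0 and 4322.3. At these ages every EOM array lay under every leg array, and so it was at day 28; over the tested probe sets this held for 8.83%, 9.28%, 10.5% and 12.1% at the 4 ages. At day 21 EOM read 2672.8, 3623.7 and 4135.3 and leg 1526.9, 4635.1 and 4919.3. On the day 28 arrays EOM read 2860.8, 4239.2 and 4253.0 and leg 4799.8, 5932.9 and 7641.7. At day 45 EOM read 2539.4, 3627.1 and 6541.9 and leg 4368.9, 6785.7 and 9377.3. The widest spreads were in EOM at day 0, where replicate 1 was lowest (SD 1.07 on the log2 scale), and in leg at day 21 (SD 0.95).

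The EOM minus leg difference of U25650_f_at was -1.32 ± 0.40 at day 0 (adjusted p = 0.0438). It was -0.66 at day 7, -0.52 at day 14, 0.07 at day 21, -0.69 at day 28 and -0.74 at day 45, and none of these passed (adjusted p from 0.285 to 0.963). From day 0 to day 45 the probe set rose by 1.52 ± 0.40 in EOM (adjusted p = 0.00391), 2.86-fold, and the difference in leg was 0.94 ± 0.40 (adjusted p = 0.0712). The EOM change minus the leg change was 0.58, with an interval of -0.57 to 1.73 (adjusted p = 0.740), so a larger rise in EOM was not shown.

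Both calls were lost without 1 array, and the day 0 call was lost in many other fits. Without EOM day 0 replicate 1, which read 613.3, the day 0 difference was -0.74 (adjusted p = 0.411), the rise in EOM was 0.94 (adjusted p = 0.0709), and the F test over the EOM ages went from an adjusted p of 0.0161 to 0.0952. The day 0 difference was also lost without EOM day 0 replicate 2 (-1.43, adjusted p = 0.0735), and without leg day 0 replicate 1 (-1.10, adjusted p = 0.225), 2 (-1.40, adjusted p = 0.0709) or 3 (-1.45, adjusted p = 0.0584). With all arrays kept, the day 0 call was lost with no filter (adjusted p = 0.0757), without a trend (0.0591) or with only the compared arrays fitted (0.271). The call of the rise in EOM was lost with only the compared arrays (adjusted p = 0.0774). The leg change from day 0 to day 45 passed without leg day 45 replicate 3 (1.23, adjusted p = 0.0317), the only 1 of 16 alternative fits in which it did.

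On X05137_at, EOM read 2545.5, 2708.5 and 2907.4 at day 0 and leg 1931.8, 2600.8 and 2850.6. At day 7 EOM read 2342.4, 2367.7 and 2587.3 and leg 2021.6, 2105.2 and 2173.6. At day 14 EOM read 1575.0, 1971.7 and 1992.8 and leg 1743.2, 1758.1 and 1855.5. Day 7 was the single age at which all EOM arrays lay above all leg arrays, as for 12.5% of all tested probe sets. At day 21 EOM read 1534.4, 1929.0 and 1952.2 and leg 1337.9, 1349.3 and 1660.8. For day 28 EOM read 1388.8, 1958.2 and 2318.8 and leg 1015.7, 1251.2 and 1461.3. Last, at day 45, EOM read 1103.0, 1650.7 and 1998.2 and leg 1696.5, 1696.7 and 1720.5. The highest group mean of each muscle was that of day 0, and the 3 leg arrays of day 45 lay close together (SD 0.01 on the log2 scale).

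From day 0 to day 45 X05137_at fell by 0.82 ± 0.20 in EOM (adjusted p = 0.00172), 1.77-fold, and by 0.51 ± 0.20 in leg (adjusted p = 0.0462), 1.42-fold. Over all ages both muscles varied (F test, adjusted p = 0.0108 in EOM and 0.00192 in leg). In EOM the day 45 call held when any 1 array of the comparison was left out, and was lost with only the compared arrays fitted (adjusted p = 0.0505). In leg it was lost without leg day 0 replicate 1 (-0.46, adjusted p = 0.123) or 3 (-0.40, adjusted p = 0.192), and without leg day 45 replicate 1 (-0.51, adjusted p = 0.0940), 2 (-0.51, adjusted p = 0.0949) or 3 (-0.52, adjusted p = 0.0777). The leg call was lost too with quantile normalization (adjusted p = 0.0735), without a trend (0.0547) or with only the compared arrays fitted (0.0863). The muscles differed at day 28, by 0.59 ± 0.20 (adjusted p = 0.0492). That call was lost without leg day 28 replicate 2 (0.45, adjusted p = 0.215) or 3 (0.60, adjusted p = 0.0986), without EOM day 28 replicate 1 (0.42, adjusted p = 0.260) or 2 (0.55, adjusted p = 0.153), and when arrays were scaled to the same median (0.50, adjusted p = 0.0542). Quantile normalization (0.46, adjusted p = 0.108) and fitting only the compared arrays (0.224) lost it as well. So did no trend (0.0616), a floor at the 30th percentile (0.0507) and log2 of the value plus 100 (0.0507).

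**Figure D2:**
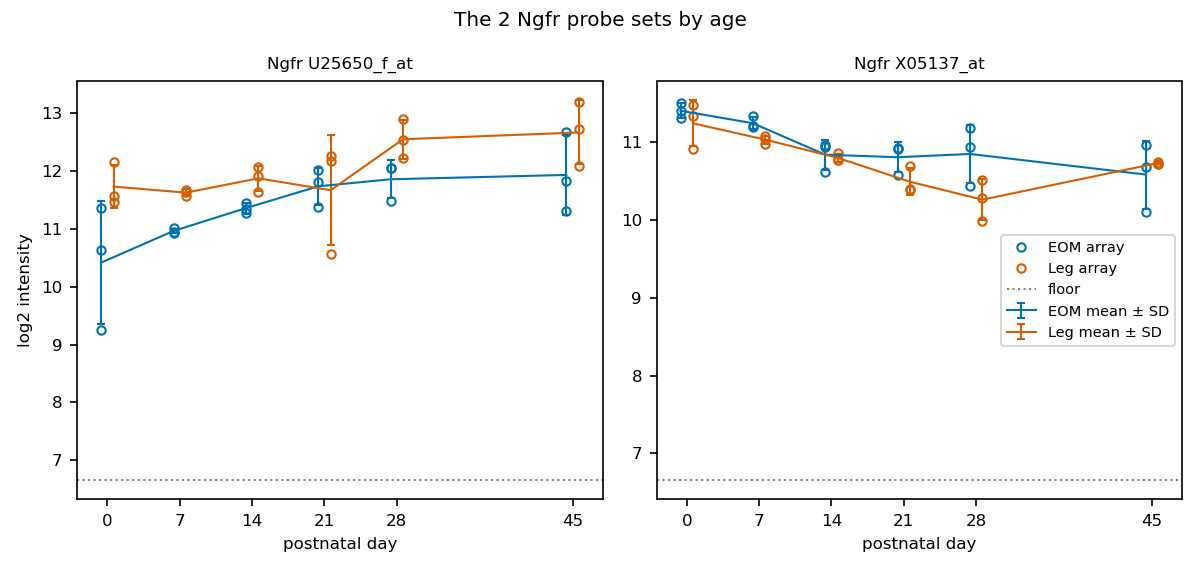
Log2 intensity of the 2 Ngfr probe sets by postnatal day, with 1 circle for each array, EOM in blue and leg in orange, lines through group means with SD bars (3 arrays), and the floor dotted. U25650_f_at climbs from its lowest EOM value at day 0, while X05137_at is highest at day 0 in both muscles.

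Bdnf has several first exons, each with its own start, spliced to a shared coding exon. The RefSeq table of GRCr8 promoters lists 6 starts for Bdnf and was matched by this gene alone among the 5. The sources used here do not say which transcript each Bdnf probe set reads. As examples, the 60 bases before 3 of the 6 starts follow, all on the plus strand. They are those of the first start (chr3:116619573-116619632), the fourth (chr3:116637798-116637857) and the fifth (chr3:116639742-116639801). Capitals mark TCACGTCA, a form of the cyclic AMP response element, which was searched on both strands.
start 1: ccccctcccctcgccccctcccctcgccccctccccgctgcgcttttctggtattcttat
start 4: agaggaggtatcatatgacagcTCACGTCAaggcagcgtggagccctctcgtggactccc
start 5: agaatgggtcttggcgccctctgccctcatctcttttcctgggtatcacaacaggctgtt
In windows from 250 bases before to 50 after a start, these letters occurred in 1 of the 6 Bdnf windows, that of start 4, and in 134 of 33469 windows of the whole table (0.40%). The windows of starts 5 and 6, which lie 56 bases apart, overlap. The match is a description of the sequence only.

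The Bdnf probe sets also disagreed. S76758_i_at fell after birth in both muscles, S76799_at rose in leg, and 0 of the 5 tested probe sets differed between EOM and leg by limma at any single age, where 4.03% to 11.8% of all tested probe sets did. At an unadjusted p under 0.05 it was 0 at days 0, 7, 14 and 21 and 1, S76799_at, at days 28 and 45, a threshold that 13.2% to 24.1% of all tested probe sets passed. The 10 pairwise correlations of their group means ran from -0.61 to 0.50.

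On S76758_i_at, EOM read 835.2, 1978.4 and 2547.8 at day 0 and leg 1469.8, 1820.2 and 3551.6. By day 7 EOM read 677.3, 780.0 and 1106.2 and leg 733.7, 1024.9 and 2529.2. At day 14 EOM read 492.5, 599.7 and 1002.1 and leg 253.1, 283.7 and 653.8. The 2 muscles overlapped at these and at all later ages. By day 21 EOM read 360.1, 363.7 and 494.4 and leg 441.2, 491.9 and 658.4. At day 28 EOM read 155.3, 398.8 and 399.9 and leg 128.5, 325.7 and 444.9. By day 45 EOM read 519.4, 563.5 and 867.5 and leg 366.1, 375.9 and 587.1. The lowest mean of each muscle was that of day 28, 8.19 ± 0.79 in EOM and 8.05 ± 0.93 in leg (SD, n = 3).

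From day 0 to day 45 S76758_i_at fell by 2.29 ± 0.49 in leg (adjusted p = 0.0005), 4.90-fold, and by 1.35 ± 0.49 in EOM (adjusted p = 0.0359), 2.55-fold. The difference between these changes was 0.94, with an interval of -0.48 to 2.37 (adjusted p = 0.630). Its course over the ages passed in EOM (F test, adjusted p = 0.00323) and in leg (adjusted p = 5.54e-05). The leg step from day 7 to day 14, -1.78 ± 0.49 (adjusted p = 0.0345), passed, as for 3.9% of all tested probe sets, and no other step between neighbouring ages passed for any member probe set.

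The leg fall over 45 days was called in every fit that left out 1 array of the comparison. The EOM fall was not called without EOM day 0 replicate 2 (-1.20, adjusted p = 0.119) or 3 (-1.02, adjusted p = 0.176), without EOM day 45 replicate 1 (-1.21, adjusted p = 0.110) or 3 (-1.27, adjusted p = 0.0929), or with arrays scaled to the same median (-1.24, adjusted p = 0.0650). The leg step was lost without leg day 7 replicate 1 (-1.92, adjusted p = 0.0606) or 3 (-1.27, adjusted p = 0.226) and without leg day 14 replicate 1 (-1.61, adjusted p = 0.158) or 2 (-1.52, adjusted p = 0.178), and also when arrays were scaled to the same median (-1.73, adjusted p = 0.0571). Quantile normalization, no filter and only the compared arrays each lost the leg step (adjusted p = 0.0519, 0.0610 and 0.177) and the EOM fall (0.0650, 0.0574 and 0.0564).

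On S76799_at, EOM read 761.8, 803.7 and 877.4 at day 0 and leg 590.5, 694.4 and 699.4. At day 7 EOM read 767.3, 783.4 and 846.8 and leg 581.6, 627.3 and 631.6. By day 14 EOM read 456.6, 556.9 and 726.1 and leg 207.2, 487.9 and 793.9. EOM arrays lay above leg arrays at days 0 and 7, as for 14.6% and 12.5% of all tested probe sets, and overlapped them at day 14. At day 21 EOM read 683.4, 763.1 and 1047.6 and leg 434.6, 704.1 and 1215.5. At day 28 EOM read 584.4, 595.9 and 596.6 and leg 792.5, 1081.9 and 1147.7. At day 45 EOM read 548.3, 730.6 and 854.0 and leg 1068.5, 1101.7 and 1464.2. At the last 2 ages the order was turned, with every EOM array under every leg array, as for 12.1% and 9.13% of all.

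In leg S76799_at rose by 0.86 ± 0.33 from day 0 to day 45 (adjusted p = 0.0466), 1.82-fold, and varied over the ages (F test, adjusted p = 0.00884). In EOM the difference was -0.22 ± 0.33 (adjusted p = 0.670). The EOM change minus the leg change was -1.08 ± 0.47, with an adjusted p of 0.267. The EOM minus leg differences at days 28 and 45, -0.75 and -0.78, did not pass (adjusted p = 0.158 and 0.148). The rise in leg was lost without any 1 of the 6 arrays: without leg day 0 replicates 1, 2 and 3 it was 0.78, 0.90 and 0.90 (adjusted p = 0.121, 0.0805 and 0.0769), and without leg day 45 replicates 1, 2 and 3 it was 0.92, 0.95 and 0.72 (adjusted p = 0.0699, 0.0632 and 0.148).

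The other 5 Bdnf probe sets were dim. S71196mRNA_s_at ran from 56.6 to 610.6 over the 36 arrays, with its highest group means at day 45 in both muscles, 8.75 ± 0.44 in EOM and 8.78 ± 0.37 in leg (SD, n = 3). Its leg difference between day 45 and day 0 was 1.32 ± 0.54 (adjusted p = 0.0599), 2.49-fold on floored values, and its F test over the leg ages had an adjusted p of 0.121. Over 27 alternative fits that p ran from 0.0472, without leg day 21 replicate 1, to 0.361, and 1 of them passed. S71201mRNA_at ran from 57.8 to 759.3 and D10938exon_s_at from 39.2 to 402.7, with no call in any comparison. At day 7 S71201mRNA_at lay higher on all EOM arrays (331.9, 516.9 and 582.5) than on all leg arrays (188.2, 234.5 and 252.9), as for 12.5% of all tested probe sets, with a difference of 1.05 ± 0.58 (adjusted p = 0.485). The untested rc_AI030286_s_at exceeded the floor on 6 arrays, among them all 3 EOM arrays of day 0 (142.0, 163.3 and 241.3). X67108_at exceeded it on 6 arrays as well, with a highest reading of 204.8 in leg at day 45.

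**Figure D3:**
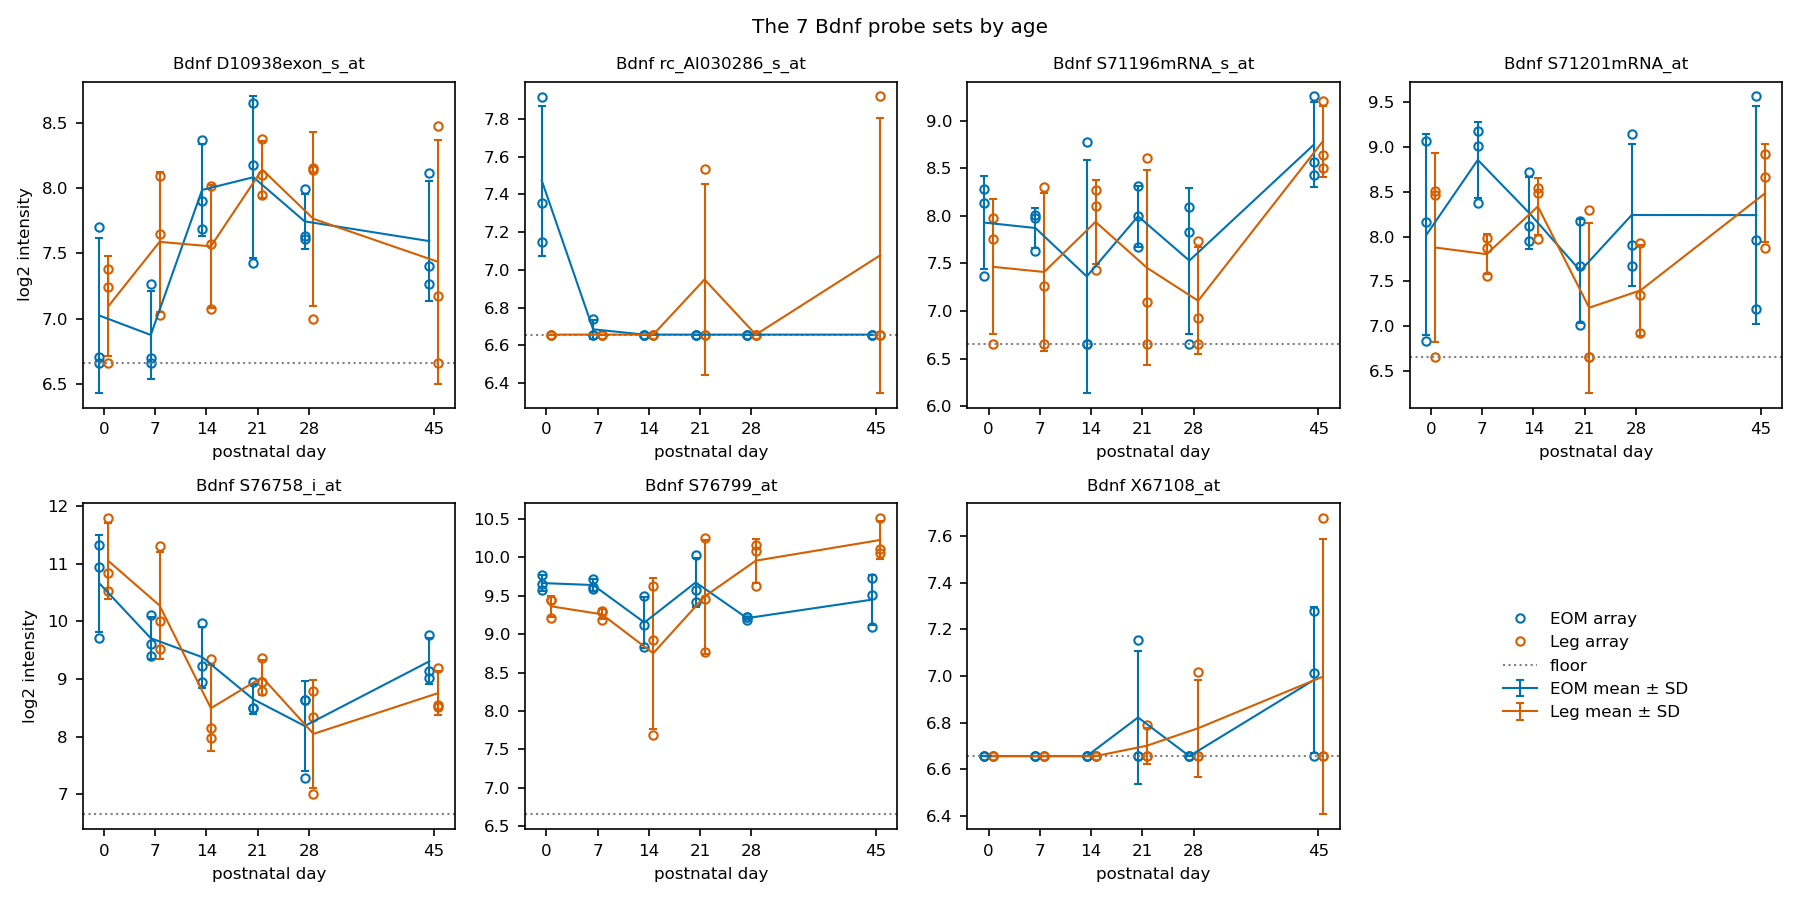
Log2 intensity of the 7 Bdnf probe sets by postnatal day, with 1 circle for each array, EOM in blue and leg in orange, lines through group means with SD bars (3 arrays), and the floor dotted; each panel has its own scale. S76758_i_at falls from day 0, S76799_at ends higher in leg, and rc_AI030286_s_at and X67108_at lie mostly on the floor.

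Set beside the rest of the array, the member probe sets passed about as often as others. Of the 10 tested, EOM and leg differed in 2 at day 0 (1 higher in EOM and 1 lower), where 6.32% of all tested probe sets passed. At days 7 and 14 it was 1 each, Nefm, against 4.98% and 4.92%. At day 21 it was 0 by limma, against 4.03% of all, and 2 at an unadjusted p under 0.05, against 16.2% of all. At day 28 it was 2, Gap43 and Ngfr X05137_at, against 11.8%, and at day 45 it was 1, Nefm, against 10.6%. The Nefm calls among these come from a probe set that could enter the tests only through EOM. Between day 0 and day 45, 3 of 10 changed in EOM and 4 of 10 in leg, near the 31.3% and 32.8% of all tested probe sets. Over all ages 4 of 10 varied in each muscle, against 31.4% of all in EOM and 35.9% in leg.

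No member probe set passed a test for a course that differed between the muscles. In the F test of the muscle by age interaction 0 of 10 passed by limma, against 4.05% of all tested probe sets, and 1 at an unadjusted p under 0.05, against 14.6%. For the difference of the day 45 against day 0 changes 0 of 10 passed, against 3.7% of all, and again 1 at an unadjusted p under 0.05, against 14.1%. The 2 comparisons are not independent, since they use the same arrays. Of the steps between neighbouring ages, the fall of Bdnf S76758_i_at in leg from day 7 to day 14 passed, 1 of 10 against 3.9% of all tested probe sets. In the other 4 leg steps, in order of age, 0 of 10 passed by limma, against 0.824%, 0.659%, 0.15% and 1.96% of all. At an unadjusted p under 0.05 it was 0, 1, 1 and 3 of 10, against 7.04%, 12.2%, 9.28% and 15.0% of all. In the 5 EOM steps 0 of 10 passed by limma, against 1.87%, 6.22%, 0.6%, 0.105% and 0.21% of all. Here the unadjusted p was under 0.05 in 0, 2, 1, 0 and 2 of 10, beside 732, 1201, 578, 386 and 672 of all 6672.

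A comparison averaged over the 6 ages, added after the values were seen, used 18 arrays against 18. Nefm was higher in EOM by 1.53 ± 0.18 (adjusted p = 1.08e-07), Nefl by 1.25 ± 0.24 (adjusted p = 0.000173) and Gap43 by 0.40 ± 0.09 (adjusted p = 0.00138). Ngfr U25650_f_at was lower by 0.64 (log2 difference -0.64 ± 0.16, adjusted p = 0.00275). These 4 of 10 compare with 31.8% of all tested probe sets. Of the 4, Nefm passed the intensity filter on 14 of 18 EOM arrays and 0 of 18 leg arrays. Its difference is thus in part built into the filter, and its p-value cannot be read as support for it. Ngfr X05137_at, at 0.19 ± 0.08, had an adjusted p of 0.0649 that went under the threshold without leg day 0 replicate 3 (0.0470), leg day 28 replicate 1 (0.0427), EOM day 14 replicate 3 (0.0468), EOM day 21 replicate 3 (0.0477), EOM day 28 replicate 3 (0.0235) or EOM day 45 replicate 3 (0.0146), and with the replicate number as a block over all arrays (0.0393). Of 46 alternative fits, Ngfr X05137_at passed in these 7. Over all 46 its difference ran from 0.09 to 0.23, and its adjusted p reached 0.379. The 5 tested Bdnf probe sets gave -0.05 to 0.36, and none passed.

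**Figure D4:**
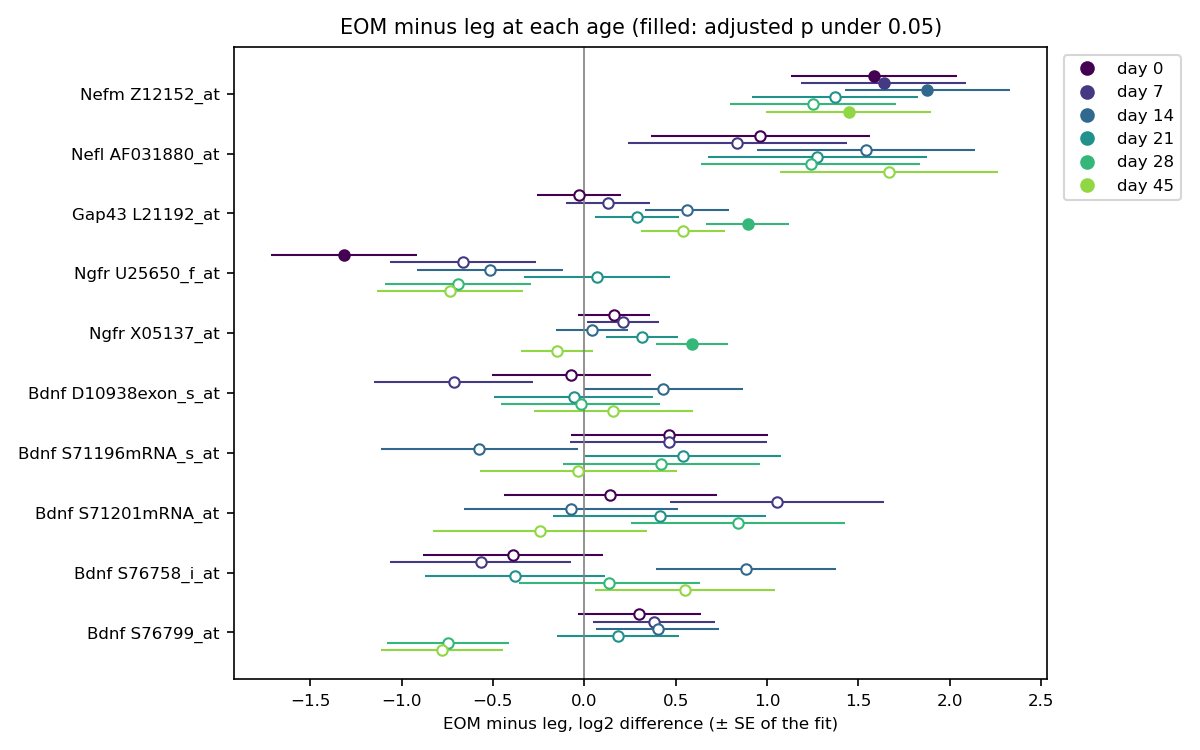
EOM minus leg difference on the log2 scale for the 10 tested member probe sets (rows), with 1 point for each age coloured from day 0 (dark) to day 45 (light), bars for the standard error of the fit, and filled points where the adjusted p was under 0.05. Nefm points all lie between 1.25 and 1.88, and Bdnf points straddle 0.

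Among other genes of neurotrophin signalling, 7 of the 15 listed were measured and tested, and few differed. For this and the next lists the background is the share of all tested probe sets that were higher in EOM, 3.93%, 3.33%, 2.61%, 3.48%, 7.63% and 6.89% from day 0 to day 45, or lower, 2.4%, 1.65%, 2.31%, 0.555%, 4.18% and 3.69%. At days 0, 7, 14, 21 and 28, 0 of 7 passed between EOM and leg by limma, with 0, 1, 2, 1 and 0 at an unadjusted p under 0.05, which 15.9%, 13.2%, 16.7%, 16.2% and 24.1% of all tested probe sets passed. At day 45 Ntrk3, the receptor of neurotrophin 3, was higher in EOM by 1.26 ± 0.41 (adjusted p = 0.0459), and Bex3, a partner of the p75 receptor, by 0.78 ± 0.20 (adjusted p = 0.00979). The list's median difference at day 45 was 0.14, beside 0.01 over all tested probe sets. Between day 0 and day 45 Bex3 fell by 1.51 ± 0.20 in EOM (adjusted p = 6.27e-07) and by 1.97 ± 0.20 in leg (adjusted p = 4.62e-09). Ntf4, neurotrophin 4, rose by 1.13 ± 0.39 in EOM (adjusted p = 0.0258). Ntrk2, the Bdnf receptor, ranged from 66.6 to 691.2 and Ntf3 from 642.1 to 2398.0 over the arrays, and neither passed in these comparisons.

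Of 13 tested genes for other nerve growth factors and their receptors, 0 differed by limma at days 0 and 7 (1 and 0 at an unadjusted p under 0.05), 1 at day 14 and 1 at day 21, each time Igf1, an insulin-like growth factor. At day 28 3 were higher in EOM: Ptn, pleiotrophin (1.75 ± 0.52), Gfra1, the receptor that binds glial cell line-derived neurotrophic factor (1.55 ± 0.36), and Fgfr1, a fibroblast growth factor receptor (0.87 ± 0.20). At day 45 2 were higher in EOM, Igf1 (1.94 ± 0.35) and Ptn (1.78 ± 0.52). Lower calls in EOM numbered 0 at every age. Counting a gene when any of its probe sets passed, in place of the brightest, gave 4 genes at day 28 and 4 at day 45. From day 0 to day 45 Ptn fell by 4.26 ± 0.52 in leg and fell by 2.24 ± 0.52 in EOM. The list's median EOM minus leg difference was 0.23 at day 28 and 0.15 at day 45, beside 0.05 and 0.01 over all tested probe sets.

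Of 26 tested genes of the axon cytoskeleton and of axon growth, 2 were higher in EOM at day 0, Mapt, the axonal microtubule protein tau (3.33 ± 0.38), and Rtn1, a reticulon of the endoplasmic reticulum (1.30 ± 0.38). At day 7 it was Mapt alone. At day 14 Map2, a microtubule protein of dendrites (1.65 ± 0.40), and Basp1, a growth cone protein related in function to Gap43 (0.80 ± 0.22), were higher. At day 21 Map2 (1.80 ± 0.40) and Map1a, another microtubule protein (0.86 ± 0.22), passed, and at day 28 Map2 (2.59 ± 0.40), L1cam, an axonal adhesion molecule (1.47 ± 0.50), Map1a (0.99 ± 0.22) and Vamp2, a synaptic vesicle protein (0.64 ± 0.21). At day 45 Map2 (2.39 ± 0.40) and Thy1 (1.18 ± 0.28) were higher and Nfasc, neurofascin, was lower (-0.82 ± 0.21). Counting a gene when any of its probe sets passed gave 8 genes at day 28 in place of 4 and 5 at day 45 in place of 3. The list's median lay between 0.06 at day 45 and 0.37 at day 21, against 0.01 and 0.08 over all tested probe sets.

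Between day 0 and day 45 1 of the 26 rose and 4 fell in EOM, and 4 rose and 8 fell in leg; with any probe set of a gene counted, 7 genes passed in EOM and 14 in leg. Of all tested probe sets 12.9% rose and 18.4% fell in EOM, and 14.4% rose and 18.5% fell in leg. The growth-associated Stmn1, stathmin, fell by 2.64 ± 0.23 in EOM and fell by 2.81 ± 0.23 in leg. Marcks, a substrate of protein kinase C, fell by 1.36 ± 0.22 in EOM and fell by 1.41 ± 0.22 in leg. In leg Map2 fell by 2.23 ± 0.40. Mapt rose in leg by 4.83 ± 0.38, with a probe set whose suffix s marks probes shared by several sequences. Each of these values passed limma's test after adjustment.

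Markers of Schwann cells, the glia of peripheral nerves, also differed between the muscles. Of 12 listed, 9 were measured and tested, and 3, 4, 4, 4, 6 and 4 of them were higher in EOM at days 0, 7, 14, 21, 28 and 45, with 0 lower. Their summed intensity on the 18 EOM arrays ran from 25758.7 to 41993.3. In leg it ran from 21714.2 to 26464.8 at day 0, 27267.3 to 31414.1 at day 7 and 21672.5 to 27330.3 at day 14. It was lower in leg later, 12139.0 to 20262.5 at day 21, 9949.8 to 13084.4 at day 28 and 10007.1 to 16016.4 at day 45. EOM arrays lay above leg arrays at each of the 6 ages. In this linear sum the brightest marker, Pmp22, weighs most. Its median over the 36 arrays was 16535.9, against 2836.0 for Prx, the next. From day 0 to day 45, 2 of the 9 markers fell in leg by limma. The median EOM minus leg difference of the 9 markers was 0.88, 1.14, 1.42, 1.07, 1.84 and 1.58 at the 6 ages. The most markers passed at day 28, with Mbp, myelin basic protein, higher by 3.51 ± 0.49 and Prx, periaxin of myelinating Schwann cells, by 1.95 ± 0.26. The part of Schwann cells in the member results was not tested.

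Of 12 listed markers of autonomic or sensory neurons 11 were measured and 8 tested. EOM was higher in 0, 1, 0, 0, 2 and 2 of the 8 at the 6 ages and lower in 0, the calls being Ddc, a decarboxylase of amine synthesis, and Npy, a neuropeptide; at an unadjusted p under 0.05 it was 1, 1, 1, 0, 2 and 2. At day 0 their summed intensity ran from 4737.7 to 5516.6 in EOM and from 3989.7 to 4648.2 in leg, at day 7 from 5329.5 to 6712.4 and from 3190.2 to 4391.7, and at day 14 from 5370.9 to 6203.5 and from 3485.0 to 4818.1. At day 21 it ran from 2897.8 to 5794.5 in EOM and from 3127.9 to 4782.6 in leg, at day 28 from 5195.5 to 5523.4 and from 2903.4 to 3790.4, and at day 45 from 4695.8 to 5918.9 and from 3928.9 to 5039.4. All EOM sums thus lay above all leg sums at days 0, 7, 14 and 28, and the muscles overlapped at days 21 and 45. In this linear sum too, bright markers weigh most. The median EOM minus leg difference of the 8 tested markers was 0.22, 0.28, 0.27, -0.04, 0.32 and -0.05 at the 6 ages. Of the markers that define noradrenergic neurons, Dbh was at the floor on 34 and Phox2a on 28 of the 36 arrays, while Th ran from 736.2 to 1832.0. The part of neuronal cell bodies in the member results was not tested.

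Markers of other tissues differed as well, at ages at which Nefm did and at others. All 4 gland epithelium markers were higher in EOM at day 0 and 3 of 4 at day 7, and their summed intensity ran from 15244.3 to 18162.1 in EOM and from 822.6 to 1682.8 in leg at day 0, and from 3604.3 to 8759.1 and from 1327.7 to 1640.7 at day 7. Of 2 tested eye markers 1 was higher in EOM at day 0 and 1 at day 7, and 0 passed at later ages. Eye sums were 964.0 to 1715.3 in EOM against 387.0 to 570.7 in leg at day 0. At day 7 they were 561.4 to 954.4 against 300.5 to 360.9. Of 4 tested adipocyte markers 3 were lower in EOM at day 0, with sums of 11911.8 to 15761.2 against 21598.5 to 29538.4 in leg. Of 3 tested leukocyte markers 2, Cd74 and Lyz2, were higher in EOM at day 21, with sums of 5101.5 to 21660.4 against 1986.4 to 3632.3. Of 6 tested markers of endothelium and smooth muscle 4 were higher in EOM at day 45, with sums of 17517.4 to 21998.7 against 6583.9 to 9117.8. At days 0 and 7, 2 and 1 of them were higher, with sums that overlapped. The direction turned at day 28, with 1 marker lower in EOM and sums of 9346.8 to 12426.9 against 16049.9 to 29106.5. Sums were also lower in EOM at day 14, 12040.4 to 14775.9 against 15716.9 to 19939.0. The part of these tissues in the member results was not tested.

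**Figure D5:**
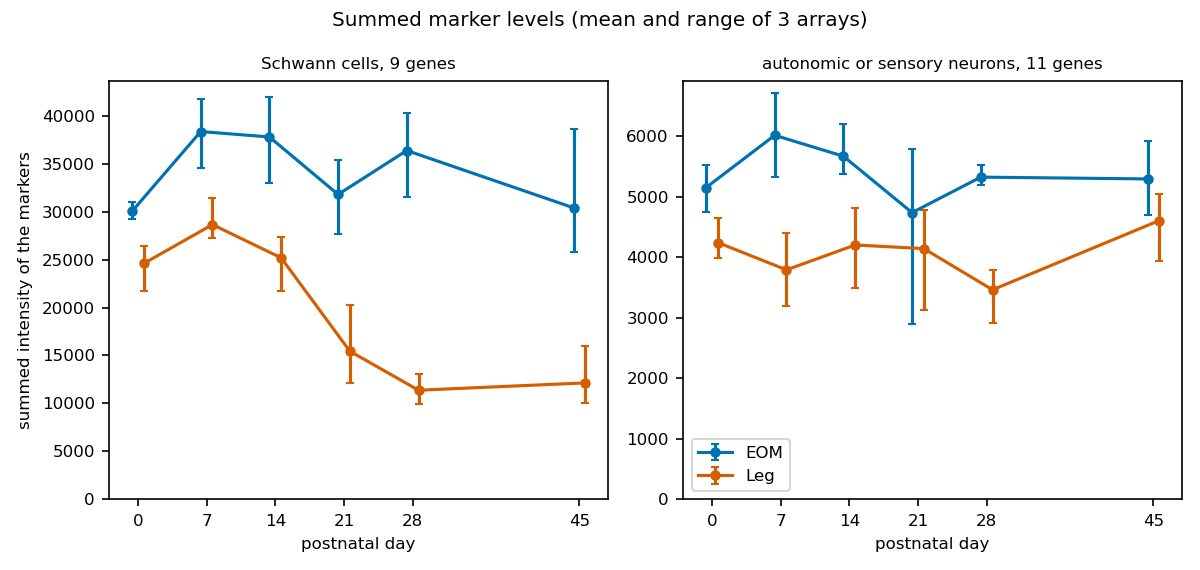
Summed linear intensity of the Schwann cell markers (left, 9 genes) and of the autonomic or sensory neuron markers (right, 11 genes) by postnatal day, with the mean of 3 arrays as points and the lowest and highest array as bars, EOM in blue and leg in orange. The Schwann cell sum, in which Pmp22 weighs most, drops in leg after day 14 and lies higher in EOM at all 6 ages.

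The genes whose 12 group means followed each member most closely were found among 2672 genes, as a description over means that share their arrays. For Nefm they were Alkbh2 (Pearson r = 0.977), Traf3ip2 (0.974) and Cyp1b1 (0.952). For Nefl they were Clec11a (0.965), Alkbh2 (0.937) and Hk1 (0.930), so Alkbh2 stood beside both neurofilament genes. For Gap43 they were Tgfb3 (0.961), Mboat7 (0.947) and Aldh7a1 (0.945). The 2 Ngfr probe sets had different neighbours, Schip1 (0.945), Pgam2 (0.944) and Tst (0.928) for U25650_f_at, and Rabgap1l (0.975), Usp37 (0.975) and Ythdc1 (0.960) for X05137_at. Bdnf S76758_i_at ran with Nthl1 (0.958), Hmox1 (0.947) and Dll3 (0.944), and S76799_at with Ubald1 (0.866), Golga1 (0.842) and Pter (0.806). For the dimmer Bdnf probe sets the closest genes were Acadvl (0.917) for D10938exon_s_at, Foxo1 (0.877) for S71196mRNA_s_at and Prps2 (0.943) for S71201mRNA_at.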

How the data were processed

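The deposited table gives the authors' processed intensity of each probe set and array. It is linear and holds 44 zeros. The arrays had like trimmed means, so values had been scaled before deposit. The sources used here do not name the summarising software. Groups came from the labels. Symbols came from the platform annotation (all 5 members matched RefSeq's GRCr8 table). Values were floored at the 20th percentile (100.9) and put on the log2 scale. One limma fit (limma 3.58.1, R 4.3.3) of the 12 group means took in the 36 arrays (trended prior, 24 residual and 5.84 prior degrees of freedom), and adjustment was made per comparison. With 3 arrays a group, their number limits the precision. Figures used matplotlib 3.10.9 in python 3.11.15.

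All member probe sets are named. From each list up to 4 genes past the threshold with the largest differences are named, each gene by its brightest probe set, and the 3 most similar courses per tested probe set (1 for the dim ones). The members and lists were chosen with earlier results of these data known. The deviations of same-numbered EOM and leg arrays correlated above 0.1 for all 3 numbers at days 7, 14 and 21 (0.101 to 0.369), and for 1, 2 and 0 of the 3 at days 0, 28 and 45 (-0.095 to 0.255). At those 3 ages the numbers may pair samples, from the data and not the labels. The fits used no replicate block.

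Alternatives were other floors, log2 of the value plus 100, other scalings and filters, no trend, a replicate block, the compared arrays alone and each array left out.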

Additional observations from a re-analysis of the deposited data

How the results depend on the processing

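No called difference of a member probe set reversed. Of 4604 alternative values, 4496 stayed on their side of the threshold in the same direction or, in 162 cases, changed sign without being called before or after; 87 lost a call and 21 gained one. EOM and leg differed in 7 cases over the 6 ages, in 4 after scaling arrays to the same median, in 4 after quantile normalization and in 3 when only the arrays compared were fitted, and in 4 to 8 when 1 array was left out (4 without leg day 0 replicate 1, EOM day 0 replicate 1 or 2, or EOM day 7 replicate 1 or 2). Day 45 against day 0 gave 7 cases over both muscles, 2 with only the arrays compared, and 4 to 7 when 1 array was left out (4 without EOM day 0 replicate 2). The difference of these changes gave 0, and 1 with no filter, Bdnf rc_AI030286_s_at. Steps between neighbouring ages gave 1, then 2 with a floor at the 30th percentile, with log2 of the value plus 100, with a filter on 12 arrays or with the replicate block over all arrays, and 0 after either scaling or with only the arrays compared; leaving out 1 array gave 0 to 2. The replicate block within each age, added after seeing the data, left the member calls at days 7, 14 and 21 as they were (1, 1 and 0), and took the Ngfr U25650_f_at difference at day 0 to an adjusted p of 0.0528.

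Counts over all probe sets behind the percentages moved more. At day 21 269 passed, from 22 to 356 over the settings and 82 to 343 with 1 array left out. At day 45 706 passed, from 132 to 868 and 439 to 764. Scaling arrays to the same median moved the median difference of all tested probe sets by -0.127 at day 0, -0.131 at day 21 and 0.106 for day 45 against day 0 in EOM, and by -0.171 to 0.156 over the steps. Over the 3 gene lists and 6 ages 23 calls were made with the brightest probe set of a gene and 34 with any. An array at the floor, as for Nefm in leg and the dim Bdnf probe sets, gives an upper bound rather than a level.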
